A study of Mus musculus with 13 samples.

Results

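The drug and bile transporters described here were all mouse genes whose symbol begins with Slco, Slc22a or Abca, Abcb, Abcc, Abcd or Abcg and a number, together with Slc10a1. Of 19938 genes named on the array, 83 met this rule through a probe set with a single gene symbol, and a gene with several such probe sets was read from the one of highest mean. A gene was tested when its mean level passed a filter on dim signals, and 68 members passed it. The other 15, among them Slco2b1 and Abcc6, were below it. Levels are log2 of quantile-normalised intensity plus 16, a difference of 1 on that scale is a 2-fold change or somewhat more for a dim gene, and each difference is given ± its standard error from a limma model. A gene is called changed when its adjusted p in a comparison is below 0.05.

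Liver RNA of 13 mice aged 14 days was measured, with 1 array per sample, and nothing in the labels says whether the samples of a group came from separate litters. Wild type livers carried floxed Rb1 without Cre and were taken either untreated (2 arrays) or 24 h after a single intraperitoneal dose of 20 mg/kg diethylnitrosamine (DEN), a carcinogen that hepatocytes activate (2 arrays). The remaining groups all received DEN: heterozygous livers with 1 functional and 1 floxed Rb1 allele and Cre (2 arrays), livers labelled as the RB-N750F mutant, a substitution in the retinoblastoma protein (5 arrays), and knockout-labelled livers with floxed Rb1 and Cre (2 arrays). In the heterozygous and knockout-labelled livers Cre came from an albumin promoter, which is known mainly from hepatocytes. The labels call the controls untreated whereas the design text says that they received saline, a characteristic of the heterozygous samples names loss of heterozygosity, and the N750F labels name neither the second allele nor Cre. No untreated liver of any other genotype was among the samples, so every other comparison with the untreated livers differs by genotype as well as DEN, and the wild type comparison also differs in sex and batch, as given below.

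Hepatocytes take up bile acids, drugs and hormones from portal blood through carriers of the SLCO (OATP) and SLC22 families and the sodium-dependent bile acid carrier Slc10a1. They export bile salts, phospholipid, cholesterol and conjugated drugs into bile through ATP-binding cassette (ABC) pumps of the canalicular membrane, while other ABC proteins return solutes to blood or move lipids inside the cell. Many of these genes answer to nuclear receptors for bile acids, oxysterols and xenobiotics, and some pumps are known to be induced by genotoxic and oxidative stress.

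Promoter sequence is shown for Abcb1b and Abcb1a, since these neighbouring genes both encode P-glycoprotein and Abcb1b alone of them was called, and for the short stretch between the divergent genes Abcg5 and Abcg8, whose products form 1 cholesterol pump. The sequences are from RefSeq on GRCm38.p6, which held a promoter window for 68 of the 83 members but none for Slc22a7 or Abcg1. Each Abcb1 line gives the 250 bases before the start site, from chr5:8797897-8798146 for Abcb1b and chr5:8566841-8567090 for Abcb1a, on the plus strand. The third line is the whole interval of 109 bases between the starts, chr17:84683012-84683120, plus strand. Capitals mark matches to the motifs searched.
Abcb1b: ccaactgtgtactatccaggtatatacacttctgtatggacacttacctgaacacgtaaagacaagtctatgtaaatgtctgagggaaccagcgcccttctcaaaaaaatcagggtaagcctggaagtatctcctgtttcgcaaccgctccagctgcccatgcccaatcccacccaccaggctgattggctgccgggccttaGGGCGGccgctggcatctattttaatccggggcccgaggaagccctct
Abcb1a: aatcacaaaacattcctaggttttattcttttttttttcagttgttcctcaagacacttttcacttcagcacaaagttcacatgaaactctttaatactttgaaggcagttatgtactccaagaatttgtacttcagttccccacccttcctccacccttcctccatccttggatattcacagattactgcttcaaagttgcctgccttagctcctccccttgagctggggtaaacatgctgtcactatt
Abcg5-Abcg8 interval: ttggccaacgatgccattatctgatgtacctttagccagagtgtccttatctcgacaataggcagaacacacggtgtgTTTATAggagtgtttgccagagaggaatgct

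The motifs searched on both strands were TGACNNNGC, the core of the antioxidant response element, AGGTCA, a nuclear receptor core motif, GTTAAT, part of the HNF1 site, TATAAA and GGGCGG. The Abcb1b stretch held GGGCGG, 48 bases before the start, and none of the others, and the Abcb1a stretch held none of the 5. Between Abcg5 and Abcg8 the plus strand read TTTATA, which is TATAAA on the minus strand. Among the 32851 windows searched, which left out those on chr18, GGGCGG occurred in 32.7% and TATAAA in 12.4%. In the 80 windows of the members (68 genes, some with several starts) the shares were 30.0% and 15.0%. TGACNNNGC was found in 10.2% of all windows searched and 11.2% of the members' windows, AGGTCA in 14.0% and 16.2%, and GTTAAT in 6.43% and 5.0%. A match is only a match of letters, and none of these shares sets the members apart by a test.

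Before the comparisons, some differences between arrays bear on what follows. Arrays were run in 2 batches, as named in the raw array names: batch 1 held 9 arrays, including both untreated and both knockout-labelled livers, and batch 2 held 1 wild type DEN, 1 heterozygous and 2 N750F arrays. The batch term was called for 14.6% of all genes tested and for 14 of 68 members (20.6%), 13 of them lower in batch 2 (Abca1, Abca2, Abca5, Abca9, Abcb11, Abcb4, Abcc2, Abcc3, Abcc4, Abcc9, Slco1a1, Slco1a4 and Slco1a5) and Slc22a7 higher. Differences below come from a model with that term unless another setting is named. Sex, read from Xist and Y-linked genes, was uneven: the untreated livers were 1 male and 1 female, wild type DEN both female, heterozygous and knockout-labelled all male (with an intermediate Xist level of 8.05 in heterozygous array 4), and N750F 1 male and 4 female. The Rb1 signal of 7.92 and 6.57 in the knockout-labelled arrays lay on either side of the untreated 7.27 and 7.15, and as the probes' place relative to the floxed exon is not given here it checks no label. Knockout-labelled array 2 also held skeletal muscle transcripts (Tnnt3 at 11.96, the highest of all arrays). Hepatocyte markers had summed levels of 15.59 to 15.61 in untreated, 15.34 to 15.49 in wild type DEN and 15.28 to 15.52 in heterozygous arrays. The sums were 15.46 to 15.68 in N750F and 15.38 to 15.53 in knockout-labelled arrays. Their mean level was 11.62 to 11.70 untreated and lower in all DEN arrays, at most 11.61 (N750F). Of these markers 0 of 11 tested were called in any comparison, while cholangiocyte markers were dim, with 2 of 5 tested and none called. Markers of dividing cells, of which 7 were tested, had summed levels of 10.71 to 11.02 in untreated, 9.07 to 9.16 in wild type DEN, 8.28 to 8.38 in heterozygous, 11.54 to 11.85 in N750F and 9.78 to 11.94 in knockout-labelled arrays. Of neutrophil markers, 1 of 4 tested (S100a8) was lower in wild type DEN, heterozygous and N750F than in untreated livers. In these comparisons 0.689%, 1.4% and 6.21% of all genes were called. Heterozygous livers also had 1 of 8 sinusoidal endothelial (Cdh5), 1 of 8 stellate and mesenchymal (Reln) and 1 of 5 erythroid markers (Slc4a1) called lower than untreated. The part of these markers in the transporter differences was not tested. In these bulk samples fewer cells of a type and less RNA per cell cannot be told apart.

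On average, the uptake carrier Slc22a7 and Abcg1 read lower, and Abcb1b higher, in DEN-treated than in untreated livers. Most classical bile acid and drug transporters were not called. In the test for any difference among the 5 groups, 3 of 68 members were called, Slc22a7 (adjusted p 0.0087), Abcb1b (0.039) and Abcb4 (0.048), against 2.89% of all genes tested. DEN in wild type called 1 member, Slc22a7 (1.47%, against 0.689% of all genes), although 13 members (19.1%) had an unadjusted p below 0.05, against 13.7% of all genes. The heterozygous comparison with untreated wild type also called only Slc22a7 (1.47%, all genes 1.4%). N750F livers against untreated wild type had 7 calls, 4 higher and 3 lower (10.3%, all genes 6.21%), while 17.6% of members and 22.2% of all genes had an unadjusted p below 0.05. For the knockout-labelled livers no member was called by limma (all genes 0.0869%), with 7 members (10.3%) at an unadjusted p below 0.05, against 9.48% of all genes. Averaging the 4 DEN groups against untreated wild type, a comparison added after the levels had been seen, called 3 members, Abcb1b higher and Slc22a7 and Abcg1 lower (4.41%, all genes 2.19%), with a median over the 68 members of 0.02 beside -0.04 over all genes. These 5 comparisons share the same 2 untreated arrays, so agreement among them is not independent. Member calls fell from 7 to 0 for N750F and from 3 to 0 for all DEN groups without untreated array 1, and to 1 each without untreated array 2. The call in wild type was lost without untreated array 1 or either DEN array. With no batch term, 13 of the 14 calls of members in comparisons between groups were lost.

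**Figure D1:**
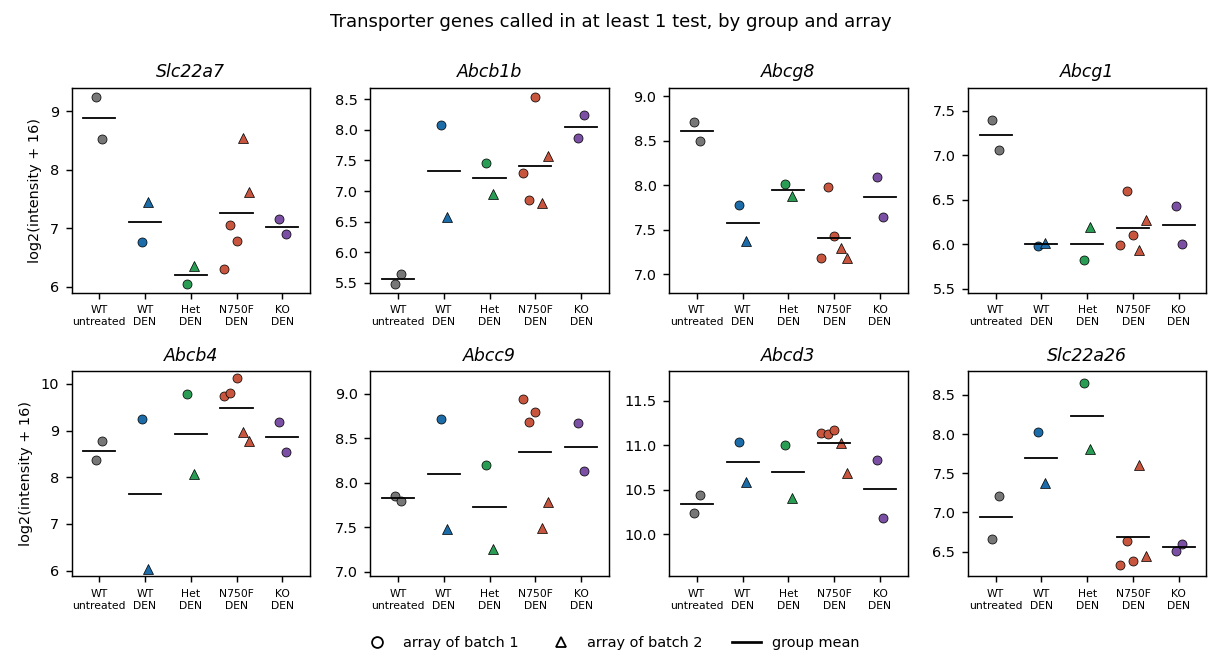
Levels, log2(intensity + 16), of the 8 transporter genes called in at least 1 planned test, by group, with 1 point per array, circles for batch 1, triangles for batch 2 and a line at the group mean. The untreated points stand above nearly all DEN points for Slc22a7, above all of them for Abcg8 and Abcg1, and below all of them for Abcb1b, and wild type DEN array 4 stands alone at 6.03 for Abcb4.

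Among the carriers that bring organic anions and bile acids into hepatocytes, 8 were measured and 7 tested, and Slc22a7 was the member called. Slc22a7 encodes OAT2, a basolateral carrier of organic anions and cyclic nucleotides. Its level was 9.25 and 8.53 in the untreated livers. After DEN it was 6.77 and 7.45 in wild type, 6.04 and 6.36 in heterozygous, and 7.16 and 6.90 in knockout-labelled livers, and the N750F arrays read 6.29, 7.05, 6.78, 8.55 and 7.62. All DEN arrays except N750F array 4, which was level with the lower untreated array, stood below both untreated livers. The log2 difference from untreated wild type was -2.27 ± 0.41 in wild type (adjusted p 0.0249), -3.18 ± 0.41 in heterozygous (0.00273), -2.03 ± 0.34 in N750F (0.00947) and -1.87 ± 0.39 in knockout-labelled livers (0.0996, not called). Averaged over the DEN groups it was -2.34 ± 0.31 (adjusted p 0.00305). Batch 2 arrays read higher by 0.98, and within batch 1 alone the averaged difference was -2.26 (adjusted p 0.0109).

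The wild type call for Slc22a7 did not hold when arrays were left out: the difference was -1.91 (adjusted p 0.318) without untreated array 1, -2.50 (0.0625) without DEN array 3 and -2.12 (0.144) without DEN array 4. Without untreated array 1 the N750F difference was -1.67 (0.203) and the averaged one -1.98 (0.138), while the heterozygous call held without any single array. The heterozygous call was lost, however, with no batch term or in batch 1 alone. In 6 of 10 other settings the wild type call was lost too. These were no normalization, median scaling, no batch term, batch 1 alone, replicate number in place of batch and the level of Y-linked genes as a covariate. Untreated array 1 was male, and both wild type DEN livers were female. Among the DEN groups themselves, no difference in Slc22a7 was called. The heterozygous livers were below wild type (log2 difference -0.91 ± 0.39, adjusted p 0.717), and N750F and knockout-labelled livers were above heterozygous by 1.15 ± 0.32 (0.123) and 1.31 ± 0.41 (0.272).

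The sodium-taurocholate carrier Slc10a1, the main bile salt importer, showed little spread. It read 11.57 and 11.64 untreated and 11.06 to 11.80 in the DEN arrays, which overlapped the untreated ones. Its averaged DEN difference was -0.13, with a 95% interval of -0.57 to 0.31, so a fall as large as that of Slc22a7 lies outside the interval. Slco1b2, the liver-specific OATP for bilirubin and drugs, was 10.56 and 10.90 untreated and 9.93 to 11.30 after DEN, with an averaged difference of 0.02 (interval -0.63 to 0.67). Neither gene was called in any comparison, and both were measured far above the filter.

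The Slco1a genes, which encode OATPs for steroid conjugates, bile acids and drugs, were not called, and Slco1a4 and Slco1a5 read highest in the heterozygous livers. Slco1a4 read 10.85 and 10.81 untreated, 10.94 and 9.60 in DEN-treated wild type, 11.56 and 11.06 in heterozygous, 11.10, 10.80, 11.01, 9.70 and 8.98 in N750F, and 10.76 and 11.21 in knockout-labelled livers. Both heterozygous arrays were above the untreated arrays, and the batch 2 arrays of the other groups were the 3 lowest. Its heterozygous difference from untreated wild type was 1.14 ± 0.34 (adjusted p 0.12) and N750F lay below heterozygous (log2 difference -1.12 ± 0.27, adjusted p 0.0583), neither called. Slco1a5, a related carrier, differed by 1.50 ± 0.46 between heterozygous and untreated livers (adjusted p 0.129). Slco1a1 ranged from 5.63 to 8.69 over the DEN arrays around untreated values of 7.37 and 7.21, and its averaged difference of 0.64 had an interval of -0.24 to 1.52. Slco1a6 differed by 0.06 on average (interval -0.41 to 0.53). These genes are close copies, so their probe sets may share signal. Slco2b1, below the filter, read 4.50 to 6.37.

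The 6 tested of 9 other OATP carriers had averaged DEN differences from -0.53 (Slco4c1, interval -1.07 to 0.01) to 0.15 (Slco3a1), with a median of -0.14 and no call in any comparison. Slco2a1, the prostaglandin carrier, was 7.93 and 7.51 untreated and 6.93 to 7.90 after DEN. These values overlapped, and its averaged difference was -0.09 (interval -0.52 to 0.34).

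Of the organic cation and carnitine carriers, 4 of 5 were tested and none was called. Slc22a5, the carnitine carrier OCTN2, was 6.75 and 6.43 untreated and 7.40 and 7.04 in DEN-treated wild type, 7.57 and 7.35 in heterozygous, 6.47, 7.04, 7.64, 6.41 and 6.81 in N750F, and 7.23 and 7.14 in knockout-labelled livers. Wild type, heterozygous and knockout-labelled DEN arrays were above both untreated ones, and the N750F arrays overlapped them. The averaged difference was 0.72 ± 0.26 (adjusted p 0.168), and that of the related carnitine carrier Slc22a21 was 0.81 ± 0.27 (0.126). Slc22a4 and Slc22a2 differed by -0.10 (interval -0.73 to 0.54) and 0.02 (interval -0.63 to 0.66).

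The remaining SLC22 genes number 17, of which 15 were tested and 1, Slc22a26, was called. Slc22a26 belongs to a cluster of closely related organic anion carriers with Slc22a27, Slc22a29 and Slc22a30. It read 6.66 and 7.21 untreated, 8.03 and 7.37 in DEN-treated wild type, 8.65 and 7.81 in heterozygous, 6.33, 6.64, 6.38, 7.61 and 6.44 in N750F, and 6.51 and 6.60 in knockout-labelled livers. Both heterozygous arrays were above all N750F and knockout-labelled arrays. N750F lay below heterozygous by a log2 difference of -1.55 ± 0.35 (adjusted p 0.0413), the 1 member of 68 called (1.47%), against 1.64% of all genes. The knockout-labelled difference from heterozygous was of like size, -1.69 ± 0.44, but not called (adjusted p 0.177). The call was lost without any of 8 single arrays, for example heterozygous array 3 (-1.001, adjusted p 0.371) or array 4 (-2.05, 0.123), and with the level of Y-linked genes as a covariate (-2.01, 0.103). The heterozygous livers were male and 4 of 5 N750F livers female, and 6 of 7 markers of dividing cells were also higher in N750F than in heterozygous livers.

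Other genes of that cluster, named after their values were seen, did not all follow Slc22a26. Slc22a27 was 9.27 and 9.37 untreated, and 10 of 11 DEN arrays lay above, from 9.83 to 10.39, with knockout-labelled array 2 at 8.72. Its averaged difference was 0.58 ± 0.25 (adjusted p 0.257). Slc22a30 was 6.23 and 5.57 untreated, 7.24 and 6.73 in DEN-treated wild type, 6.97 and 6.82 in heterozygous, 5.07 to 6.19 in N750F, and 6.93 and 4.69 in knockout-labelled livers. N750F lay below wild type DEN by a difference of -1.15 ± 0.47 (adjusted p 0.283) and below heterozygous by -1.06 ± 0.47 (0.418). Slc22a29 ranged from 7.83 to 9.71 over all arrays, with its lowest values in the knockout-labelled livers, and none of these differences was called. As near copies of each other, their probe sets may not be specific.

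The 8 exporters of the canalicular membrane were all tested, and Abcb1b, Abcb4 and Abcg8 were called in N750F livers against untreated wild type. Abcb1b encodes 1 of the P-glycoproteins of the mouse, which pump many drugs and toxins out of cells. It read 5.49 and 5.65 untreated, below the filter level of 5.94. After DEN it was 8.09 and 6.58 in wild type, 7.46 and 6.96 in heterozygous, 7.29, 6.86, 8.54, 6.81 and 7.58 in N750F, and 7.86 and 8.24 in knockout-labelled livers. All 11 DEN arrays were above both untreated arrays, with a gap of nearly 1 unit between the highest untreated and the lowest DEN array. Such complete separation upward was seen in 1 of 68 members (1.47%) and in 2.94% of all genes tested.

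The Abcb1b difference from untreated wild type was 2.09 ± 0.49 in wild type (adjusted p 0.0705), 1.97 ± 0.49 in heterozygous (0.0645), 2.11 ± 0.41 in N750F (0.0161, called) and 2.48 ± 0.46 in knockout-labelled livers (0.0639). Averaged over the DEN groups it was 2.16 ± 0.38 (adjusted p 0.0129). As the untreated level is dim, this size depends on the offset: it was 2.60 with an offset of 1 and 1.61 with an offset of 50, called in both. The 4 groups thus had similar estimates, and differences between genotypes after DEN ranged from -0.37 (N750F minus knockout) to 0.51 (knockout minus heterozygous), none called. Without untreated array 1 the averaged difference was 2.08 (adjusted p 0.268) and without array 2 it was 2.24 (0.0697); for N750F alone these values were 2.03 (0.222) and 2.19 (0.06). Within batch 1 the averaged difference was 2.22 (0.0369).

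Abcb1a, the other P-glycoprotein gene, read 7.61 and 7.50 untreated and 6.84 to 8.34 after DEN. These ranges overlapped, and its averaged difference was 0.32 (interval -0.24 to 0.87). The log2 ratio of Abcb1b to Abcb1a was -2.12 and -1.85 untreated and -0.39 ± 0.64 (SD, n = 11) after DEN. The ratio was chosen after the levels were seen and rests on an untreated Abcb1b signal below the filter level, so it is a description with no test, and similar sequences could mix the signals of both genes. Of the promoter stretches printed above, GGGCGG stood before Abcb1b and not before Abcb1a, which is an observation on letters alone.

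Abcb4, the canalicular phospholipid floppase, read 8.36 and 8.77 untreated, 9.25 and 6.03 in DEN-treated wild type, 9.78 and 8.07 in heterozygous, 9.75, 9.79, 10.12, 8.98 and 8.77 in N750F, and 9.19 and 8.54 in knockout-labelled livers. Batch 2 arrays were the lowest of their groups in every group that had any, and the batch term was -1.67. N750F exceeded untreated wild type by 1.58 ± 0.39 (adjusted p 0.0327) and wild type DEN by 1.68 ± 0.37 (0.0425), the 1 member of 68 (1.47%) called in the latter comparison, against 1.42% of all genes. The difference from wild type DEN rested on DEN array 4: without it the value was 0.72 (adjusted p 0.964), and within batch 1 it was 0.63 (0.982). It was also lost without any of 8 other arrays, with an adjusted p of 0.0609 to 0.109. All 7 markers of dividing cells and 2 of 10 Kupffer markers (Vsig4 and Lyz2) were higher in N750F than in wild type DEN as well. So was 1 of 8 stellate and mesenchymal markers (Col3a1). The difference from untreated wild type was lost without either untreated array (1.38, adjusted p 0.322, and 1.79, 0.0935), either heterozygous array (1.58 in each case, 0.0508 and 0.0511) or N750F array 3 (1.60, 0.0764). It was 0.91 (0.579) with no batch term, 1.20 (0.223) with replicate number in place of batch, and 1.49 (0.051) with the level of Y-linked genes as a covariate.

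Abcg8 and Abcg5 form the cholesterol exporter of the canalicular membrane. Abcg8 was 8.71 and 8.50 untreated, 7.78 and 7.37 in DEN-treated wild type, 8.01 and 7.88 in heterozygous, 7.19, 7.98, 7.43, 7.30 and 7.18 in N750F, and 8.09 and 7.64 in knockout-labelled livers. Every DEN array was below both untreated arrays. This downward separation was found in 3 of 68 members (4.41%: Abcg8, Abcg1 and Abcc5) and in 4.77% of all genes, so the members' share is near the background. The N750F difference was -1.08 ± 0.25 (adjusted p 0.0258). The other groups had -0.89 ± 0.29 (wild type, adjusted p 0.2), -0.52 ± 0.29 (heterozygous, 0.434) and -0.74 ± 0.28 (knockout-labelled, 0.411). Settings that lost the N750F call were no normalization, median scaling, no batch term, batch 1 alone and replicate number in place of batch. The N750F call was lost without untreated array 1 (-0.98, 0.286), untreated array 2 (-1.18, 0.0826) or N750F array 3 (-1.04, 0.0726).

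Abcg5 was 10.34 and 10.24 untreated and 8.64 to 10.39 after DEN. Its averaged difference of -0.44 had an interval from -1.10 to 0.22 and was not called. The log2 ratio of Abcg8 to Abcg5 was -1.63 and -1.74 untreated and -1.91 ± 0.35 (SD, n = 11) after DEN, and the arrays overlapped.

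The other canalicular pumps were not called in any comparison. Abcb11, the bile salt export pump, read 10.41 and 10.55 untreated and 9.60 to 10.97 after DEN, with an averaged difference of 0.05 (interval -0.41 to 0.52). Abcc2, which exports bilirubin and drug conjugates, was 11.40 and 11.42 untreated and 10.96 to 11.92 after DEN, with a difference of 0.33 (interval -0.06 to 0.73). For Abcg2, an exporter of urate, sulfates and drugs, 10.05 and 9.91 became 9.91 to 10.79, a difference of 0.41 (interval -0.02 to 0.84).

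**Figure D2:**
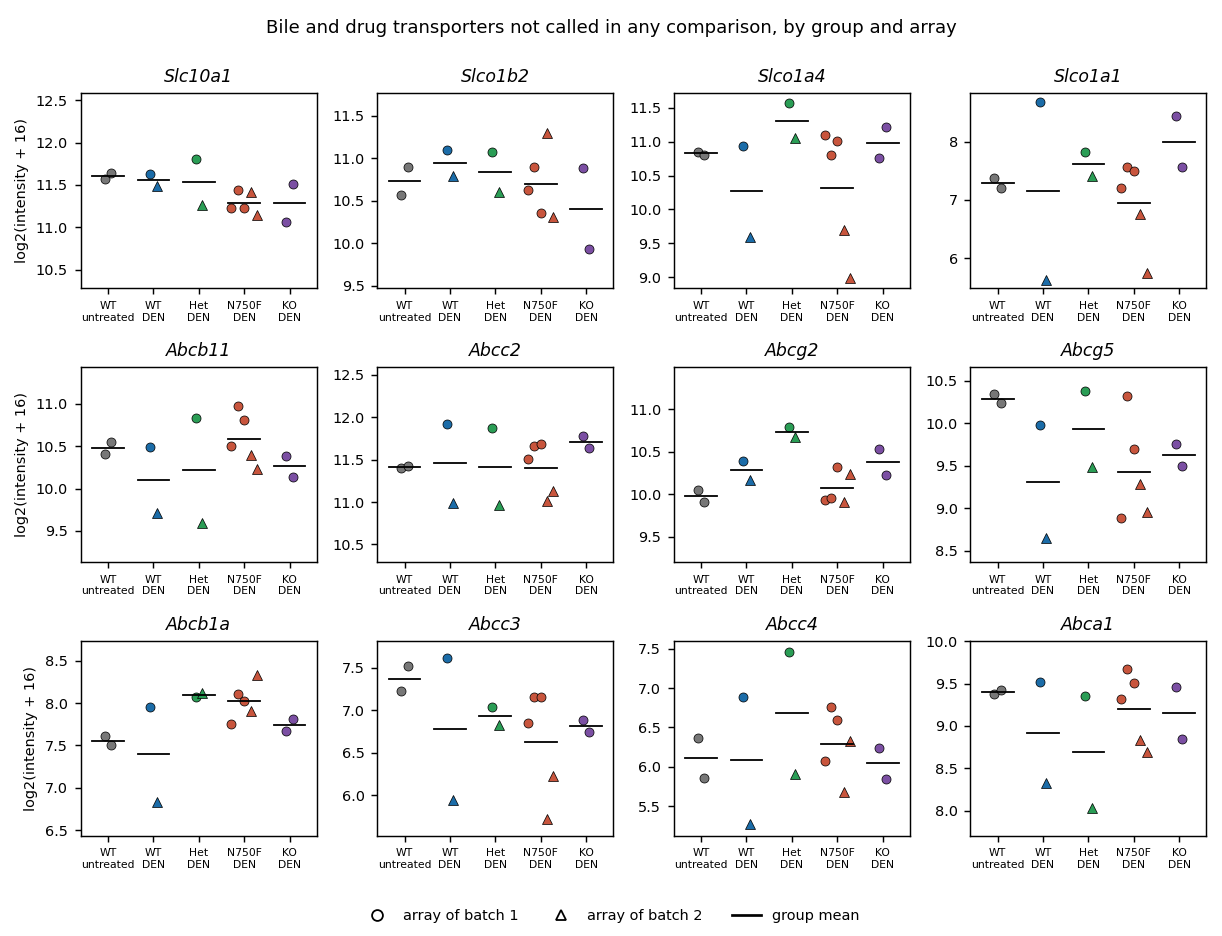
Levels, log2(intensity + 16), of 12 bile and drug transporter genes that no comparison called, by group, with 1 point per array, circles for batch 1, triangles for batch 2 and a line at the group mean. Triangles lie mostly low within their groups in Abcc2, Abcb11, Abcc3, Abcc4, Abca1, Slco1a1 and Slco1a4, and DEN and untreated arrays overlap in each gene.

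Multidrug resistance proteins other than Abcc2, mostly pumps toward blood, numbered 7, with 6 tested and none called. Abcc3, which returns conjugates and bile acids to blood, read 7.22 and 7.52 untreated and 5.72 to 7.62 after DEN, with 3 of the 4 batch 2 arrays the lowest. Its averaged difference was -0.23 (interval -0.78 to 0.33). Abcc4, a basolateral pump for bile acids and nucleotides, was 6.36 and 5.86 untreated and 5.27 to 7.46 after DEN, a difference of 0.50 (interval -0.16 to 1.16). Abcc5, an exporter of cyclic nucleotides, was 6.93 and 6.77 untreated and 5.40 to 6.47 after DEN, all below, with a difference of -0.54 ± 0.24 (adjusted p 0.268). Abcc12 had its lowest value, 5.70, in heterozygous array 4, beside 7.56 and 7.80 untreated. Abcc1 and Abcc10 differed by -0.24 and 0.11, and Abcc6, below the filter, read 5.19 to 6.77.

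Abcc9 and Abcc8 are sulfonylurea receptors, regulatory subunits of potassium channels rather than pumps. Abcc9 read 7.86 and 7.79 untreated, 8.72 and 7.47 in DEN-treated wild type, 8.20 and 7.26 in heterozygous, 8.94, 8.68, 8.80, 7.49 and 7.79 in N750F, and 8.67 and 8.13 in knockout-labelled livers. All DEN arrays of batch 1 were above the untreated ones and all 4 of batch 2 at or below them, with a batch term of -1.14. The N750F difference of 0.97 ± 0.22 (adjusted p 0.0253) was called with that term, was 0.98 within batch 1 (0.0572), and was 0.51 with no batch term (0.633). It was lost without untreated array 1 (1.00, 0.243), untreated array 2 (0.94, 0.118) or N750F array 3 (0.97, 0.068). Abcc9 is known from vascular smooth muscle and pericytes. Of 8 stellate and mesenchymal markers tested, none was called in this comparison, and their summed level was 12.61 to 12.81 in untreated and 12.43 to 13.02 in N750F arrays. Abcc8 differed by -0.15 on average and was not called.

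Abcg1, which hands cholesterol to high-density lipoprotein, was the member called lower beside Slc22a7 in the average of DEN groups. It was 7.39 and 7.06 untreated, 5.98 and 6.02 in DEN-treated wild type, 5.82 and 6.19 in heterozygous, 5.99, 6.60, 6.10, 5.94 and 6.27 in N750F, and 6.43 and 6.00 in knockout-labelled livers. Every DEN array was below both untreated arrays. The difference was -1.24 ± 0.30 in wild type (adjusted p 0.0791), -1.23 ± 0.30 in heterozygous (0.0588), -1.05 ± 0.25 in N750F (0.0281, called), -1.01 ± 0.28 in knockout-labelled livers (0.232) and -1.13 ± 0.23 on average (0.0283, called). Both calls were lost with no normalization, median scaling, the batch 1 arrays alone or replicate number in place of batch. With no batch term the N750F call was lost as well. The N750F call was lost without untreated array 1 (-0.89, 0.32), untreated array 2 (-1.22, 0.0723), N750F array 1 (-0.99, 0.0525) or N750F array 3 (-1.03, 0.0763). The averaged call was lost without untreated array 1 (-0.97, 0.487), untreated array 2 (-1.30, 0.0763), wild type DEN array 3 (-1.13, 0.06), heterozygous array 3 (-1.04, 0.0688) or N750F array 3 (-1.12, 0.0517).

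Macrophages also express Abcg1, and markers of Kupffer cells moved in some of the same groups. In wild type DEN 3 of 10 Kupffer and macrophage markers were called lower (Csf1r, Cd5l and Lyz2), against 0.689% of all genes. Cd5l was also called lower in heterozygous livers, 1 of 10, against 1.4% of all genes. Averaged over the DEN groups, 2 of 10 were called lower, against 2.19% of all genes called. These were Csf1r (-1.37 ± 0.27, adjusted p 0.0268) and Cd5l (-1.14 ± 0.26, 0.037). The summed level of the 10 was 11.30 to 11.66 untreated, 10.05 to 10.34 in wild type DEN, 10.50 to 10.81 in heterozygous, 10.92 to 11.78 in N750F and 11.03 to 11.35 in knockout-labelled livers. In N750F livers 1 of the 10 (Timd4) was called higher than in untreated livers, where 6.21% of all genes were called. The part of macrophage content in the Abcg1 difference was not tested. Abcg3, a rodent ABCG gene, was 7.46 and 7.77 untreated and 6.25 and 5.57 in wild type DEN, and N750F exceeded wild type DEN by 1.39 ± 0.32 (adjusted p 0.0528), not called. Abcg4 differed by -0.06 on average.

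No lipid transporter of the ABCA family was called, with 12 of 16 tested and averaged differences from -0.58 (Abca3) to 0.75 (Abca5). Abca1, the cholesterol and phospholipid exporter that forms high-density lipoprotein, read 9.38 and 9.42 untreated, against 8.04 to 9.68 after DEN, and its difference was -0.07 (interval -0.54 to 0.40). Abca5, an endolysosomal lipid transporter, was 7.16 and 7.60 untreated and 7.05 to 8.35 after DEN, a difference of 0.75 ± 0.24 (adjusted p 0.123). Abca3, known for surfactant lipid transport in lung, was 8.19 and 7.91 untreated and 7.03 to 8.03 after DEN, a difference of -0.58 ± 0.21 (adjusted p 0.177). In both genes the arrays overlapped.

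Among ABCD transporters, which carry fatty acyl-CoA into peroxisomes or cobalamin out of lysosomes, Abcd3 was called. Abcd3, the abundant peroxisomal membrane protein PMP70, read 10.24 and 10.45 untreated, 11.04 and 10.59 in DEN-treated wild type, 11.00 and 10.40 in heterozygous, 11.14, 11.12, 11.17, 11.02 and 10.68 in N750F, and 10.83 and 10.19 in knockout-labelled livers. All N750F and wild type DEN arrays were above the untreated ones, and the heterozygous and knockout-labelled arrays overlapped them. The N750F difference was 0.84 ± 0.23 (adjusted p 0.0444), and this call was lost without any of 10 single arrays, with an adjusted p up to 0.365 and values from 0.74 to 0.94. The Abcd3 call was also lost in 7 of 10 other settings, among them median scaling, no batch term and batch 1 alone. Abcd2 and Abcd4 differed by -0.06 and -0.165 on average. Of 5 other ABCB genes, only Abcb5 and Abcb6 were tested, and their averaged differences were -0.11 and 0.22, not called.

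**Figure D3:**
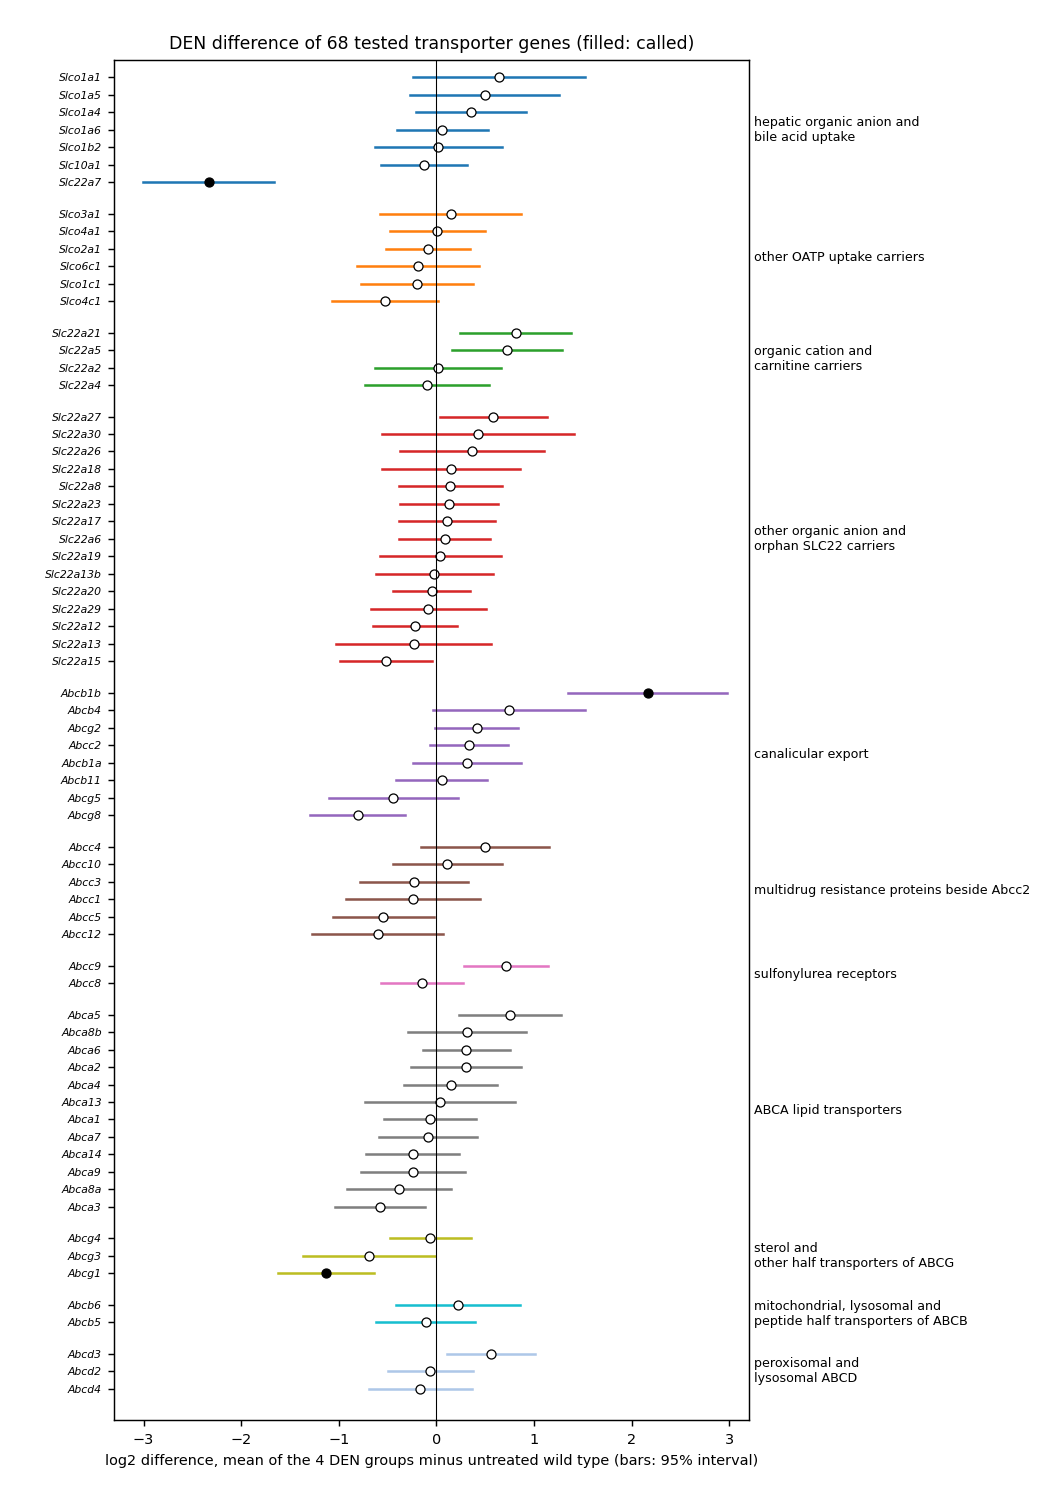
Log2 difference of the mean of the 4 DEN groups minus untreated wild type for the 68 tested members, ordered by role and then by size, with bars for 95% intervals and filled points for called genes. Slc22a7 (-2.34), Abcb1b (2.16) and Abcg1 (-1.13) are filled, and most other intervals cross 0.

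Between genotypes after DEN, few members differed. Heterozygous against wild type had no call by limma among members (all genes 0.00669%), with 8 members (11.8%) at an unadjusted p below 0.05, against 6.88% of all genes. Knockout-labelled against wild type likewise had none (all genes 0.0468%), with 7.35% of members and 8.55% of all genes at an unadjusted p below 0.05. Nor had knockout-labelled against heterozygous (all genes 0.301%), where these shares were 11.8% and 9.62%, or N750F against knockout-labelled (all genes 0%), where they were 10.3% and 12.2%. The members' share thus lay above that of all genes in some comparisons and below it in others. The calls in the remaining comparisons were Abcb4 for N750F against wild type and Slc22a26 for N750F against heterozygous, described above. The 47 tested members that were neither called nor among the hepatocyte transporters set for naming had differences between genotypes from -1.79 (Slco1a5, knockout minus heterozygous) to 1.39 (Abcg3, N750F minus wild type). Against untreated wild type, these 47 spanned -1.45 (Abcg3, wild type DEN) to 1.50 (Slco1a5, heterozygous), with a smallest adjusted p of 0.103 in N750F.

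**Figure D4:**
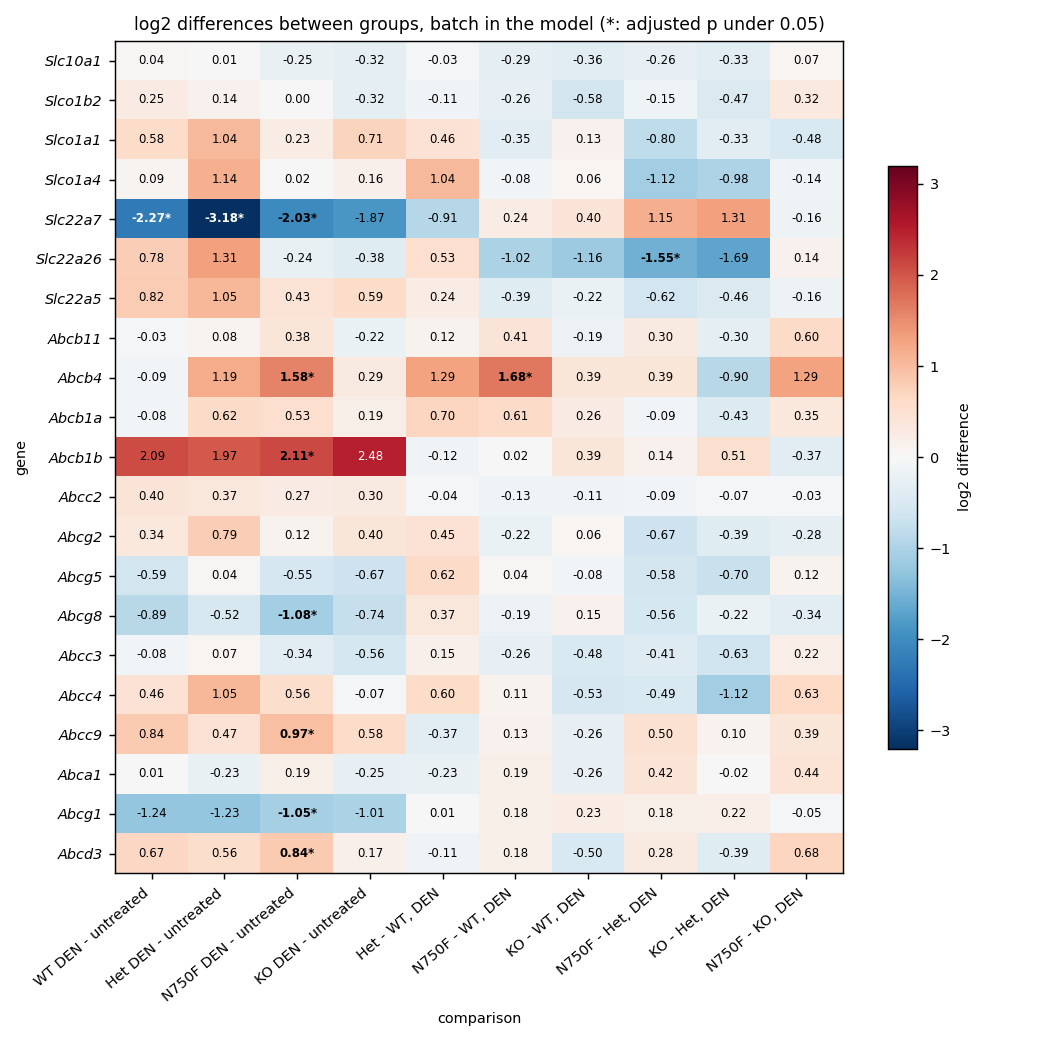
Log2 differences of 21 named members in the 10 planned comparisons between groups, from the model with batch, coloured from blue (lower) to red (higher), with an asterisk where the adjusted p is below 0.05. Slc22a7 is blue and Abcb1b red in all 4 columns against untreated wild type, and only Abcb4 and Slc22a26 carry an asterisk among the comparisons after DEN.

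Genes that work with these transporters, from lists chosen with earlier results of these data known, are given by counts and by those called, with no test of a list. Of 16 tested regulators of transporter genes, N750F livers had 1 higher and 3 lower than untreated wild type, where 6.21% of all genes were called. Nfe2l2, the activator of antioxidant genes, was higher by 0.81 ± 0.21 (adjusted p 0.0395), whereas the xenobiotic receptor Nr1i3 (-1.42 ± 0.34, 0.0307), Foxa2 (-1.10 ± 0.28, 0.0352) and Onecut1 (-1.21 ± 0.31, 0.0365), liver transcription factors, were lower. Foxa2 was also lower in wild type DEN (-1.69 ± 0.33, 0.0377), the 1 regulator called there, against 0.689% of all genes. Nfe2l2 was also higher in heterozygous than untreated livers (1.20 ± 0.25, 0.0361), the 1 regulator called there, against 1.4% of all genes. Averaged over the DEN groups, where 2.19% of all genes were called, Nfe2l2 was higher (0.90 ± 0.20, 0.0357) and Foxa2 lower (-1.34 ± 0.26, 0.0216). After DEN, N750F livers had lower Onecut1 than wild type (-2.01 ± 0.29, 0.00688), with 1.42% of all genes called. They had lower Nr1i3 than heterozygous livers (-1.51 ± 0.33, 0.0338), with 1.64% of all genes called. The median of the 16 was -0.36 in N750F against untreated wild type, beside -0.06 for all genes.

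Of 11 tested genes of bile acid synthesis and conjugation, Baat, which joins bile acids to taurine or glycine, was higher in heterozygous than untreated livers (1.47 ± 0.31, adjusted p 0.0361). It was lower in N750F than in wild type DEN (-1.27 ± 0.25, 0.0234) and heterozygous livers (-1.41 ± 0.25, 0.0095). Baat was the 1 gene of 11 called in each of these comparisons, against 1.4%, 1.42% and 1.64% of all genes. The peroxisomal oxidase Acox2 was lower in N750F than untreated (-0.94 ± 0.24, 0.0374), and 10 of 11 were not called there. None of 10 canalicular membrane partners, such as the flippase Atp8b1, was called in any comparison. In N750F against untreated, with 6.21% of all genes called, 2 of 15 other drug and solute carriers were called. The peptide carrier Slc15a2 was higher (1.52 ± 0.41, 0.0455) and the nucleoside carrier Slc29a1 lower (-1.15 ± 0.25, 0.0225). Slc16a1 was higher in N750F than in wild type DEN (2.72 ± 0.62, 0.0486), 1 of these 15, against 1.42% of all genes.

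The phospholipid transfer protein Pltp was lower in N750F (-1.42 ± 0.35, adjusted p 0.0319) and on average over the DEN groups (-1.47 ± 0.32, 0.0362). It was the 1 gene called of 11 tested partners of sterol transport in each, against 6.21% and 2.19% of all genes. Pex3, needed to build peroxisomal membranes, was higher in wild type DEN (1.29 ± 0.27, 0.0448), heterozygous (1.48 ± 0.27, 0.0186) and N750F livers (1.55 ± 0.22, 0.00596), whereas Pex14, of the import machinery, was lower in N750F (-0.91 ± 0.24, 0.0389). These were 2 of the 9 tested genes of the peroxisomal list in N750F, against the same 6.21% of all genes. In wild type DEN and in heterozygous livers Pex3 was the 1 of 9 called, against 0.689% and 1.4% of all genes. Pex3 was also higher on average over the DEN groups (1.27 ± 0.21, 0.00922), 1 of 9, against 2.19% of all genes. Among haem and mitochondrial iron partners, 9 tested, the haem synthesis enzyme Alas1 was lower in N750F than in wild type DEN (-1.90 ± 0.38, 0.0246). It was the 1 of these 9 called there, against 1.42% of all genes.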

How the data were processed

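Amplified liver RNA (WT-Ovation Pico) was read on 13 Affymetrix arrays of 1 colour, according to the labels' protocols. The authors deposited linear intensities for 35556 probe sets. The submitters' processing notes name RMA and Affymetrix Expression Console 1.1, with no role stated, and the genome build was not given in the sources used here. Median deposited intensities ranged from 76.9 to 83.0 in batch 1 and from 48.2 to 73.3 in batch 2, and the number of arrays limits the precision. Values were quantile-normalised, 16 was added and log2 taken, so differences of dim genes are understated. GEO's annotation listed 23410 probe sets, 21789 with 1 symbol and 1621 with several, and 21698 symbols were updated through Entrez IDs. Where a gene had several probe sets, that of highest mean was used. The dimmest genes, under the 25th percentile of mean level (5.94), were left out, and 14953 were tested.

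A limma 3.58.1 model in R 4.3.3 (lmFit, eBayes) held the 5 groups and batch over all 13 arrays, with 7 residual degrees of freedom and 1 spread for all groups, and adjusted p-values are from it unless another setting is named, by Benjamini-Hochberg over all genes within a comparison. Other settings used limma too. P-values set a difference against the spread between these samples, which may be partly technical. The model was also run on simulated data with set differences, independent noise and no batch shift. That run says nothing about the batch term or sex. The labels gave each array's group and number, and no pair of arrays held identical values. The members and lists were chosen with earlier results of these data known. Named genes were all members called in the F test or a planned comparison, plus a set list of hepatocyte bile and drug transporters. Further members are named at the ends of ranges, near the threshold or as relatives of a named gene, chosen after their values were seen. Alternatives covered normalization, offset, filter, batch, sex, replicate number, probe set choice and leaving out each array.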

Additional observations from a re-analysis of the deposited data

Results flagged for a closer look

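Slc22a26 in N750F array 4 stood at 7.61 while the other 4 N750F arrays lay between 6.33 and 6.64. Its gap to the nearest array was 0.763 of the group's range, above Dixon's critical value of 0.71 for 5 samples. This was the 1 case among 23 groups of values tested, and chance gives about 1 in 20. N750F array 4 is a female liver of batch 2, and in N750F array 5, also a female of batch 2, the level was 6.44.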

How the results depend on the processing

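The 14 member calls were recomputed under 23 settings, and of 322 values 211 kept the call, 111 lost it and 0 reversed direction. By setting, of 14 calls 14 were kept with an offset of 50, with the mean of all probe sets and without either knockout-labelled array, 13 with no filter, 10 with an offset of 1 or a Y-linked covariate, 9 with median scaling, 7 with no normalization, 5 in batch 1 alone, 4 without untreated array 2, 2 with the replicate block and 1 with no batch term or without untreated array 1. The number of members called for any difference (3) was 1 with no normalization, an offset of 1 or the replicate block in place of batch, and 0 with no batch term or in batch 1. For DEN in wild type (1) it was 0 with no normalization, median scaling, no batch term, batch 1, the replicate block or the Y-linked covariate, and for heterozygous against untreated (1) it was 0 with no batch term or in batch 1. For N750F against untreated (7) it was 3 with no normalization or in batch 1, 4 with median scaling, and 0 with no batch term or the replicate block. For knockout-labelled against untreated (0) the replicate block gave 1, higher. N750F against wild type (1) gave 2 with median scaling and 0 with no normalization, an offset of 1, no batch term, batch 1 or the replicate block. N750F against heterozygous (1) gave 2 with an offset of 50 and 0 with an offset of 1, no batch term, batch 1, the replicate block or the covariate. For all DEN groups (3), the counts were 5 with an offset of 50 and 1 with no batch term or the replicate block. Leaving out single arrays gave 0 to 6 calls for any difference, 0 to 1 for DEN in wild type, 1 to 3 for heterozygous, 0 to 8 for N750F and 0 to 1 for knockout-labelled against untreated, 0 to 1 for heterozygous and 0 to 2 for N750F against wild type, 0 to 1 for N750F and for knockout-labelled against heterozygous, 0 to 1 for N750F against knockout-labelled and 0 to 6 for all DEN groups. The cause of these changes was not tested. In batch 1 alone or with 1 array left out, fewer arrays also entered the fit. With 1 untreated array, that array is assumed to vary like the other groups. The replicate numbers were not taken to pair samples: deviations of same-numbered arrays from their group means correlated by -0.13 to 0.45, and numbers 3 and 4 coincide with the batches in wild type DEN and heterozygous livers.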
